A study of Mus musculus with 51 samples.

Results

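Of the 81348 H3K27ac peaks of early astrocytes (eA) on chromosomes 1 to 19, 35594 overlapped no H3K27ac peak of the astrogliogenic neural precursor cells (aNPC) from which the astrocytes were made, and these were taken as gained. The gained peaks were then divided by the H3K4me1 peaks of aNPC, with an overlap of at least 1 bp. In this way, 22870 gained peaks lay on an H3K4me1 peak that was already present in aNPC and were called primed, and 12724 did not and were called unprimed. The remaining 45754 eA peaks overlapped aNPC H3K27ac and were called kept. The question was how far the sites that acquired H3K27ac upon astrocyte differentiation had carried H3K4me1 beforehand, and how the sites with and without it differed in promoter distance, width and nearest genes.

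The cells derive from mouse embryonic stem cells of C57/BL-6 background. The aNPC were grown as a monolayer with EGF and FGF-2, and astrocytes were obtained from them in a medium with serum and LIF, after 1 day for eA and after 5 days for the late astrocytes (lA). All groups thus share the stem cell origin, no group carries a transgene or a knockdown, and they model astrogliogenesis in culture and not in the brain. For each mark and stage, 2 biological replicates were sequenced and merged before peak calling, so that every value below has 1 merged list behind it and no error between cultures, and the depth of the libraries is unknown. The 6 lists of the series used here hold 803622 peaks in all. On chromosomes 1 to 19, the aNPC H3K4me1 list had 150527 peaks that covered 89.7 Mb, or 3.63% of the bases, and the eA H3K27ac list covered 1.75%. The stage labels were set beside H3K27ac at the promoters of marker genes: an eA H3K27ac peak was found at the promoters of 11 of 16 astrocyte genes and 9 of 11 neural progenitor genes, but also at those of 2 of 9 neuronal, 3 of 11 oligodendrocyte, 2 of 9 pluripotency and 1 of 8 microglial genes, against 11468 of 21281 coding genes. Among the astrocyte genes, the promoters of Gfap, Aldoc, Slc1a3, Slc1a2, Gja1, Cd44, Sox9, Glul, Fgfr3, Clu and Apoe had an eA peak. Those of Aqp4, S100b, Aldh1l1, Gjb6 and Id3 had none. Among the progenitor genes, the promoters of Hes5 and Tnc had none. Those of Nes, Sox2, Pax6, Vim, Fabp7, Prom1, Emx2, Sox21 and Nr2e1 had one. Of the astrocyte and progenitor promoters with an eA peak, only those of Gja1, Apoe and Prom1 had no aNPC H3K27ac peak. The S100b promoter had a peak in aNPC but not in eA. Most of these promoters thus did not tell eA from aNPC.

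H3K4me1, the monomethylation of lysine 4 of histone H3, is laid down at enhancers by the MLL3 and MLL4 methyltransferases, often before the enhancer is used, and H3K27ac is added by the p300 and CBP acetyltransferases where an enhancer or a promoter is active. An enhancer with H3K4me1 alone is therefore commonly described as primed. At the start sites of active genes the nucleosomes carry H3K4me3 in place of H3K4me1, which is found at the flanks. Here, primed means only that a peak of the earlier list overlapped, and unprimed that none was called.

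To show the sites themselves, 200 bp of the mm9 reference around the eA summit are given for 8 gained peaks, in lower case, with every match to 6 short motifs in capitals. The motifs were TGANTCA for AP-1, TTGGCA for the half-site of nuclear factor I, TTCNNNGAA for STAT, TGTGGT for RUNX, GGAATG for TEAD and ACAAAG for SOX, read on both strands. The first 4 windows belong to the strongest gained peak, by its −log10 q, of each class, and the others to the strongest distal peaks with AP-1 or nuclear factor I letters. Only peaks more than 1 kb from any aNPC H3K27ac peak, and for the unprimed ones also more than 1 kb from any aNPC H3K4me1 peak, were eligible, a rule set after their values were seen.
Bmp6, primed, intron, chr13:38492859-38493058: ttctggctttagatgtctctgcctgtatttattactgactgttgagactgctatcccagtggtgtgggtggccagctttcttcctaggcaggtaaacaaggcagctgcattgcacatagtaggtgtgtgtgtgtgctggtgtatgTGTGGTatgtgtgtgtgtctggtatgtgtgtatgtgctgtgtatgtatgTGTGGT
Anpep, unprimed, intron of Ap3s2, chr7:87026338-87026537: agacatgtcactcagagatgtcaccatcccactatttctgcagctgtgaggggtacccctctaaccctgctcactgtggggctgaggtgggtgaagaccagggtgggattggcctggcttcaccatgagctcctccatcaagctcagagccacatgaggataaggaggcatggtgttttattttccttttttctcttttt
Tm4sf1, primed, promoter, chr3:57105560-57105759: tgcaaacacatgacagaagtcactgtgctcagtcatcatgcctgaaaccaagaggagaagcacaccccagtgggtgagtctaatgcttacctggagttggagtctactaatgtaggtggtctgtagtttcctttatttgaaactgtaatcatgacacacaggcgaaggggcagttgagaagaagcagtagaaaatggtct
Emp3, unprimed, promoter, chr7:53176293-53176492: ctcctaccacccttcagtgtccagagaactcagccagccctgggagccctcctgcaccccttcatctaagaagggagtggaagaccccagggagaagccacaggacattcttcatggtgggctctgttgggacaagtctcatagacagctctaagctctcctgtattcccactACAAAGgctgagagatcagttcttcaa
Col6a5, primed, intron, AP-1 letters, chr9:105852587-105852786: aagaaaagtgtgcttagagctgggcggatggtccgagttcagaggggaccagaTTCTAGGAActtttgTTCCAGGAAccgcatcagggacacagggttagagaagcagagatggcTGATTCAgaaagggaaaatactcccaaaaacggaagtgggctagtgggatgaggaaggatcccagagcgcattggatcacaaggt
Nr6a1, unprimed, intron, AP-1 letters, chr2:38729936-38730135: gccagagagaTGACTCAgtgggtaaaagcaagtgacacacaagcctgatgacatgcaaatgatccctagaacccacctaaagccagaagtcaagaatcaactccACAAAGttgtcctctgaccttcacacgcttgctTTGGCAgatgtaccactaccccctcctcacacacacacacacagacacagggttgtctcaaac
Alppl2, primed, intron of Dis3l2, nuclear factor I letters, chr1:88813667-88813866: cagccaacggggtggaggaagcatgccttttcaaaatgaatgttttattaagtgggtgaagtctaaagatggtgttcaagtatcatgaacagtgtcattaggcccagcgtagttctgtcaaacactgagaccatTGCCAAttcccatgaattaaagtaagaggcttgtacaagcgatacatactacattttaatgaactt
Zzz3, unprimed, intron of Ak5, nuclear factor I letters, chr3:152219761-152219960: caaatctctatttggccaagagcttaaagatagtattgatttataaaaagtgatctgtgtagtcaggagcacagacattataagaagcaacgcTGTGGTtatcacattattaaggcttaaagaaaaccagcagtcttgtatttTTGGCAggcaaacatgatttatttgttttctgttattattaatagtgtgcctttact
Each site is named after the gene with the nearest start site, and all sequences are those of the plus strand. The peak in Bmp6, which encodes a BMP ligand, had the highest −log10 q of the 8, with 149, and lay 125216 bp from the nearest aNPC H3K27ac peak. Its unprimed counterpart near Anpep, the gene of an aminopeptidase, had a −log10 q of 62.1 and lay 10226 bp from the nearest aNPC H3K4me1 peak. The window of Col6a5, a collagen gene, held 1 AP-1 and 2 STAT matches, and that of Nr6a1, a nuclear receptor gene, held 1 AP-1, 1 nuclear factor I and 1 SOX match. All 8 sites had an lA H3K27ac peak as well, and all but the one near Zzz3 had eA H3K4me1.

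Most of the H3K27ac that appeared in eA fell on earlier H3K4me1, although less often than the H3K27ac that was already there. Of the gained peaks, 64.3% (95% Wilson interval over peaks 63.8 to 64.7) overlapped an aNPC H3K4me1 peak, and of the kept peaks, 91.4% (91.1 to 91.6). For all eA H3K27ac peaks the share was 79.5%. The difference of 27.1 percentage points (95% interval 26.6 to 27.7) passed Fisher's exact test on the peak counts, with an adjusted p of 5.33e-300. That is the smallest value given here because p-values under 1e-300 are written as 1e-300. Kept and primed were both defined by aNPC lists of the same stage, so this test describes those lists and gives no independent support. Kept peaks were wider, and within peaks of the same width the difference ran from 35.7 points under 200 bp to 24.2 points at 200 to under 400 bp, 15.1 points at 400 to under 800 bp and 3.34 points at 800 to under 1600 bp. At 1600 bp or more, 93.4% of the kept and 92.9% of the gained peaks were on earlier H3K4me1, and the difference of 0.535 points (-3.01 to 6.50) did not pass the test (adjusted exact p = 0.763). The share of primed peaks among gained peaks lay between 59.1% and 67.5% on the 19 chromosomes. These intervals and p-values cover counting error over peaks, which are not replicates of a stage, and 47.6% of the gained peaks had another gained peak within 1 kb. Joined over gaps of up to 1 kb, the gained peaks formed 26310 regions, of which 15740 held only primed, 8132 only unprimed and 2438 both kinds of peak.

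The line between primed and unprimed is that of a peak caller. Of the primed peaks, 43.2% lay wholly inside H3K4me1 peaks, 81.4% had at least 50% of their length covered, and 993 peaks had less than 50 bp covered. Of the unprimed peaks, 1471 (11.6%) lay within 100 bp of an H3K4me1 peak, 43.8% within 1 kb and 18.1% more than 10 kb away, with a median distance of 1708 bp. On the other side, 22.3% of the gained peaks lay within 1 kb of an aNPC H3K27ac peak, 26.3% of the primed and 15.1% of the unprimed ones. With the eA summit required inside the H3K4me1 peak, the primed share of the gained peaks was 52.7%, and with an H3K4me1 peak allowed within 1 kb it was 79.9%.

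Primed gained peaks were wider than unprimed ones, and kept peaks were wider still. The median width was 300 bp (quartiles 192 and 497) for primed, 207 bp (157 and 313) for unprimed and 564 bp (308 and 938) for kept peaks. Under 200 bp were 46.8% of the unprimed and 27.3% of the primed peaks, whereas 800 bp or more were reached by 1.61% and 8.91%. The primed peaks had the larger median width on 19 of 19 chromosomes. A wide peak meets an overlap of 1 bp more easily, and with the eA summit required inside the H3K4me1 peak the medians were 289 bp and 230 bp. The median −log10 q in the eA list was 7.11 for primed and 5.19 for unprimed peaks, and the median fold over the local background at the summit was 3.92 and 3.58.

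**Figure D1:**
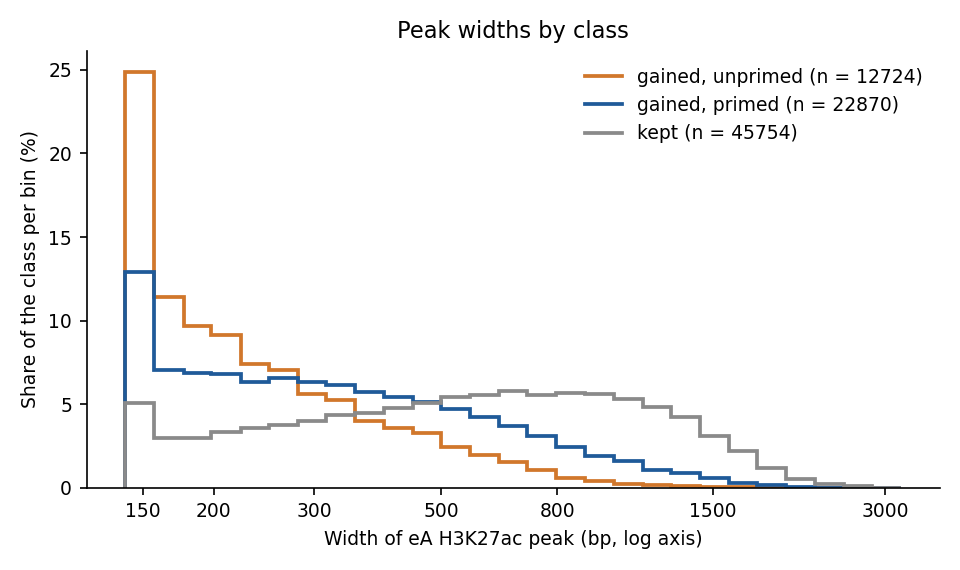
Width of the eA H3K27ac peaks (x axis, bp, log axis) as the share of each class per bin (y axis, %), for unprimed gained (n = 12724), primed gained (n = 22870) and kept peaks (n = 45754). The unprimed peaks crowd at the narrow end, with a median of 207 bp, the primed peaks have a median of 300 bp, and the kept peaks reach furthest to the right, with a median of 564 bp.

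Gained peaks were mostly distal, and the few at promoters were more often primed. A promoter was defined as the stretch from 1 kb before to 100 bp past the start site of a coding transcript. By this, 1123 of the primed peaks (4.91%, interval 4.64 to 5.20) and 315 of the unprimed peaks (2.48%, 2.22 to 2.76) had their centre at a promoter, against 11.3% of all eA H3K27ac peaks and 17.0% of the kept ones. The difference of 2.43 points (2.04 to 2.82) passed Fisher's exact test (adjusted exact p = 1.59e-30). It had the same direction on 19 of 19 chromosomes. The promoter share was also higher in primed than in unprimed peaks within each width class that held promoter peaks of both kinds. It was 5.62% against 2.89% under 200 bp and 5.28% against 2.37% at 200 to under 400 bp. At 400 to under 800 bp it was 4.28% against 1.66%. At 800 to under 1600 bp, 58 of 1921 primed peaks and 0 of 196 unprimed peaks were at a promoter. Within 1 kb of a start site on either side lay 9.38% of the primed and 4.17% of the unprimed peaks. Many gained promoter peaks stood beside older H3K27ac. Of the primed promoter peaks 49.3%, and of the unprimed ones 55.6%, lay within 1 kb of an aNPC H3K27ac peak, against 22.3% of all gained peaks. With such peaks not counted as gained, the promoter share was 3.38% for primed and 1.30% for unprimed peaks.

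Away from promoters the distances were much alike. The median distance of the peak centre to the nearest coding start site was 27890 bp (interval 27057 to 28657) for primed and 30068 bp (29186 to 30913) for unprimed peaks, and 12842 bp for kept peaks. Without the promoter peaks the medians were 30728 bp and 31406 bp. From 10 to 50 kb lay 37.4% of the primed and 40.4% of the unprimed peaks, and beyond 100 kb 19.6% and 20.9%. The primed peaks had the smaller median distance on 15 of 19 chromosomes. Introns held 50.5% of the primed and 53.1% of the unprimed peaks, exons 4.29% and 4.65%, and intergenic sequence 40.3% and 39.8%.

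Primed gained peaks nearly always had H3K4me1 in eA as well, unprimed ones less often. An eA H3K4me1 peak was found at 95.1% of the primed and 63.3% of the unprimed gained peaks, against 86.8% of all eA H3K27ac peaks, a difference of 31.9 points (31.0 to 32.7, adjusted exact p = 5.33e-300, Fisher's exact test). It was 29.2 points within width classes, an alternative added after the data had been seen. Promoters stood apart. Of the unprimed promoter peaks 29.5% had eA H3K4me1, and of the primed promoter peaks 91.0%, a difference of 61.5 points (55.9 to 66.5). Of the distal peaks, the shares were 64.1% and 95.3%. In lA, H3K4me1 was found at 64.6% of the unprimed and 90.8% of the primed peaks.

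Taken over all widths, primed gained peaks more often had H3K27ac in lA, but in the 3 narrower width classes it was the unprimed ones. An lA H3K27ac peak overlapped 62.1% of the primed and 55.1% of the unprimed peaks, against 71.9% of all eA H3K27ac peaks, a difference of 6.93 points (5.86 to 8, adjusted exact p = 1.29e-36, Fisher's exact test) with the same direction on 19 of 19 chromosomes. Under 200 bp, the shares were 37.4% for primed and 39.6% for unprimed peaks, a difference of -2.16 points (-3.89 to -0.437, adjusted exact p = 0.0197). At 200 to under 400 bp they were 56.2% and 60.7%, a difference of -4.46 points (-6.19 to -2.72, adjusted exact p = 9.41e-07). At 400 to under 800 bp they were 84.6% and 88.2%, a difference of -3.58 points (-5.29 to -1.74, adjusted exact p = 2.82e-04). At 800 to under 1600 bp, with only 196 unprimed peaks, they were 96.4% and 94.4%, and the difference of 2.02 points (-0.600 to 6.24) did not pass the test (adjusted exact p = 0.197). In an alternative added after the data had been seen, the difference was -3.24 points pooled over 5 width classes, with an odds ratio of 0.859 (0.818 to 0.902), and it was below 0 on 17 of 19 chromosomes. It was -1.77 points within 10 equal groups of −log10 q. The direction of the difference over all widths was thus turned in these comparisons. At 1600 bp or more, 114 of 117 primed and 9 of 9 unprimed peaks had lA H3K27ac. At promoters, 44.6% of the primed and 40.3% of the unprimed peaks had lA H3K27ac, and the difference of 4.30 points (-1.92 to 10.3) did not pass the test (adjusted exact p = 0.203).

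**Figure D2:**
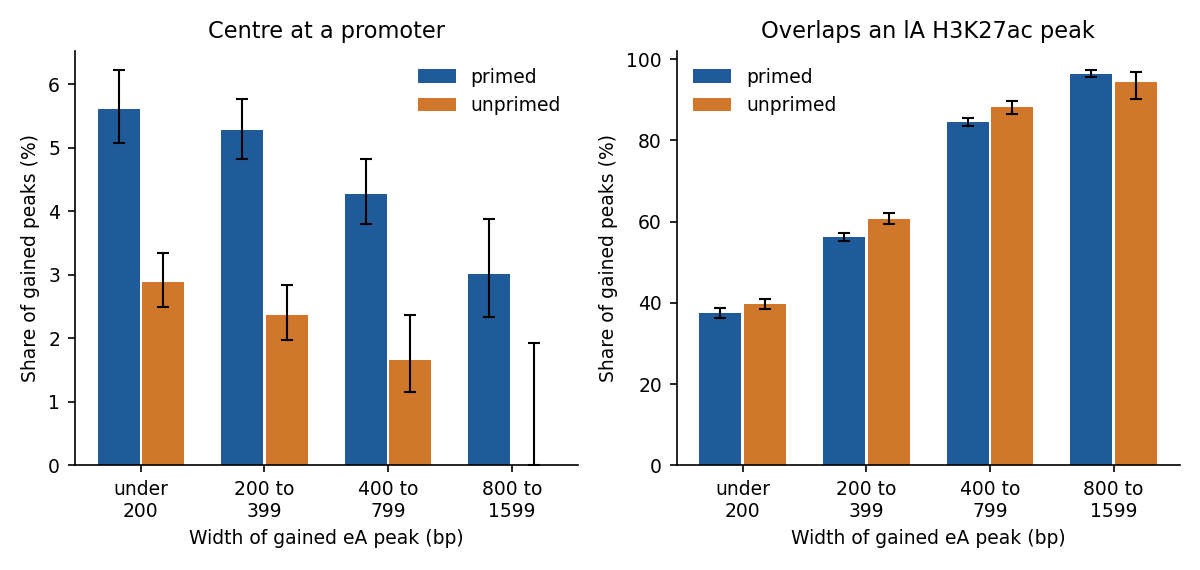
Share of gained eA H3K27ac peaks (y axes, %) with their centre at a promoter (left) and with an lA H3K27ac peak (right), by peak width (x axes, bp) for primed and unprimed peaks. Bars are shares and whiskers 95% Wilson intervals over peaks. The primed bars are higher on the left in each class, and on the right the unprimed bars are higher in the 3 narrower classes, for example 60.7% against 56.2% at 200 to under 400 bp. Peaks of 1600 bp or more are not drawn.

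Later H3K27ac was found more often at sites with eA H3K4me1, whether or not aNPC had carried it. Of the gained peaks, 21753 had H3K4me1 in both stages, 8049 in eA only, 4675 in neither and 1117 in aNPC only. An lA H3K27ac peak was found at 67.5% (66.5 to 68.6) of those with H3K4me1 in eA only, at 63.3% (62.6 to 63.9) of those with it in both, at 38.2% (35.4 to 41.1) of those with it in aNPC only and at 33.8% (32.4 to 35.1) of those with it in neither. Among peaks with eA H3K4me1, the primed ones were lower by a difference of -4.26 points (-5.46 to -3.04, adjusted exact p = 1.78e-11), although their median width was 305 bp against 234 bp. Among peaks without eA H3K4me1, the primed ones were higher by 4.45 points (1.33 to 7.63, adjusted exact p = 0.00826), with median widths of 222 bp and 178 bp. The 8049 sites with H3K4me1 called in eA but not in aNPC were the least often at promoters, with 1.16%. The 1117 sites with H3K4me1 in aNPC only were the most often there, with 9.04%. On chromosomes 1 to 19 the eA H3K4me1 list held 181227 peaks and the aNPC list 150527. The part of this difference in the groups was not tested.

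**Figure D3:**
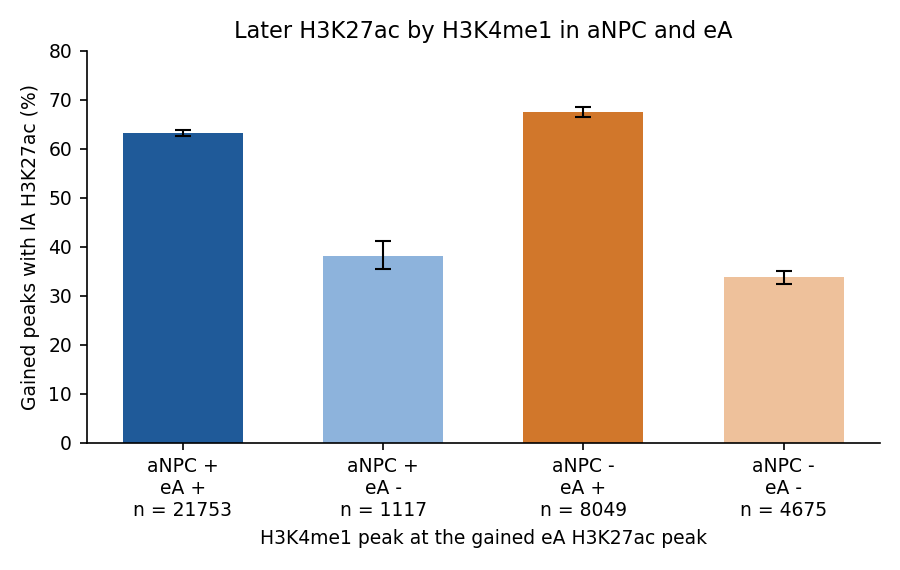
Share of gained eA H3K27ac peaks with an lA H3K27ac peak (y axis, %) by whether an H3K4me1 peak overlapped in aNPC and in eA (x axis, + or -, with n). Bars are shares and whiskers 95% Wilson intervals over peaks. The 2 groups with eA H3K4me1 reach 63.3% and 67.5%, and the 2 without it 38.2% and 33.8%.

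The share with later H3K27ac varied little with the strength of the earlier H3K4me1 peak, whereas the promoter share did not stay level. When the primed peaks were ranked by the −log10 q of their H3K4me1 peak and cut into 4 equal groups, the share with lA H3K27ac was 62.1% in the weakest, then 62.0% and 63.4%, and 60.8% in the strongest group. The promoter share was 3.03% in the weakest and 8.66% in the strongest group, and the median distance to a start site 30867 bp and 19516 bp. Among the unprimed peaks, lA H3K27ac was found at 56.5% of those up to 100 bp from an H3K4me1 peak, 57.2% from there to 1 kb, 53.7% at 1 to 10 kb and 53.6% beyond 10 kb. Primed peaks wholly inside H3K4me1 peaks had a median width of 225 bp and lA H3K27ac at 50.9%, and those only partly covered 387 bp and 70.5%.

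Seen from the progenitors, most H3K4me1 sites without H3K27ac stayed without it in eA. Of the 150527 aNPC H3K4me1 peaks, 38.9% overlapped an eA H3K27ac peak. Of the 91817 that had no aNPC H3K27ac, 18891 (20.6%, interval 20.3 to 20.8) did, and of the 58710 that had it, 67.7%. Across 10 equal groups of the H3K4me1 list ranked by its own −log10 q, the share among those without aNPC H3K27ac was 9.66% in the weakest group, 19.8% in the fifth and 54.5% in the strongest. Their median width went from 200 to 1010 bp over the same groups. Among H3K4me1 peaks of 400 to under 800 bp the share still ran from 13.0% to 49.5%. The peaks that met eA H3K27ac were wider than those that did not, with medians of 549 and 320 bp, and kept H3K4me1 in eA more often, with 94.4% against 73.2%. An lA H3K27ac peak was found at 64.6% of the former and 8.30% of the latter. The part of peak width and sequencing depth in this order was not tested beyond that.

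**Figure D4:**
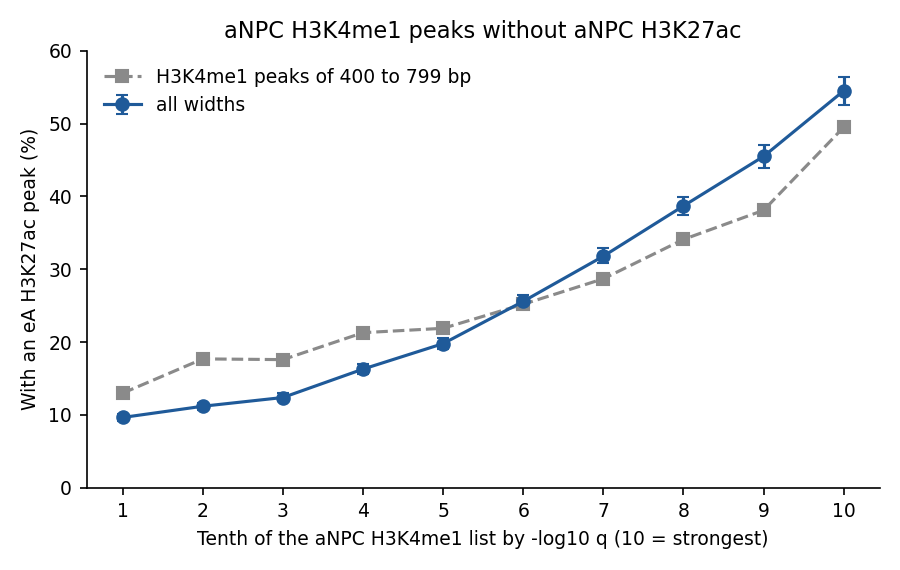
Share of aNPC H3K4me1 peaks without aNPC H3K27ac that overlapped an eA H3K27ac peak (y axis, %), by 10 equal groups of the H3K4me1 list ranked by its −log10 q (x axis, 10 is the strongest). Circles are all peaks with 95% Wilson intervals, and squares are H3K4me1 peaks of 400 to under 800 bp without intervals. Both series go up from left to right, the circles from 9.66% to 54.5%.

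In windows of 200 bp, the shares with AP-1 or STAT letters were lower and that with the nuclear factor I half-site higher in primed than in unprimed peaks, by at most 1.10 points. AP-1 letters, the site of Fos, Jun and related factors, were in 6.68% (6.36 to 7.01) of the primed and 7.66% (7.21 to 8.14) of the unprimed windows of 200 bp, against 5.72% of all eA windows, a difference of -0.986 points (-1.56 to -0.428, adjusted exact p = 9.03e-04, Fisher's exact test). The nuclear factor I half-site went the other way, with 13.1% of the primed and 12% of the unprimed windows against 11.5% of all, a difference of 1.10 points (0.381 to 1.81, adjusted exact p = 0.00444). STAT letters were in 6.67% and 7.36% against 6.13% (adjusted exact p = 0.0197), but the difference of -0.688 points was -0.222 points, and did not pass a Mantel-Haenszel test, when windows of like GC content were compared. RUNX letters were in 14.0% and 14.7% against 13.0% of all windows, TEAD letters in 11.8% and 12.5% against 10.8%, and SOX letters in 18.2% and 17.9% against 16.6%, and these differences of -0.696 (-1.46 to 0.0604), -0.695 (-1.41 to 0.00968) and 0.331 points (-0.506 to 1.16) did not pass the test (adjusted exact p = 0.0905, 0.0702 and 0.483). For SOX the difference was 1.66 points and passed the Mantel-Haenszel test within groups of like GC content, as for STAT an alternative added after the data had been seen. The mean GC content was 48.4% in primed and 46.1% in unprimed windows. In windows of 500 bp the differences were wider, with -2.31 points for AP-1, 3.87 points for nuclear factor I, -2.21 points for STAT and -1.31 points for RUNX. A match is a run of letters and no measured binding.

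Gained peaks were given to a gene if they lay at its promoter, in an exon or intron with that start site nearest, or within 50 kb of it, which placed 18231 primed and 10023 unprimed peaks at 9164 of 21281 coding genes (43.1%). Primed peaks were given to 35.4% of the genes and unprimed peaks to 24.3%. Of the 9164 genes, 3984 had only primed, 1625 only unprimed and 3555 both kinds. For 1718 genes there was no kept peak beside the gained ones. The 675 genes with at least 8 gained peaks included 16 with primed peaks alone and 0 with unprimed peaks alone. Of the peaks given to a gene, 64.5% were primed. The primed shares of the lists below are read beside this value, and their shares of genes with gained peaks beside 43.1%. Primed shares of 63.6% to 66.2% were close to it, as in the astrocyte, BMP and TGF-beta, gp130, Hippo, neuronal and oligodendrocyte lists. The nearest start site is no measure of which gene a site acts on.

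The genes with the most gained peaks were mostly long ones, and 3 of them, Nckap5, Glis3 and Erbb4, were among the 10 highest for primed and for unprimed peaks alike. Nckap5, whose locus spans 917 kb, had 39 primed and 21 unprimed gained peaks. Glis3, a Kruppel-like zinc finger factor, had 28 and 22, and Erbb4, a neuregulin receptor gene of 1076 kb, had 18 and 15. The others of the 10 highest for primed peaks were Zbtb20, a zinc finger repressor that acts in astrogliogenesis, with 25 primed against 9 unprimed, Utrn, the gene of the dystrophin relative utrophin, with 22 against 10, Ext1, a heparan sulphate polymerase, with 21 against 8, Bach2 with 19 against 4, Meis2 with 18 against 7, and the phosphodiesterase genes Pde4b and Pde4d with 20 against 6 each. Among the unprimed peaks, Ctnnd2, which encodes delta-catenin, had 21 unprimed against 12 primed, Palld, an actin-binding protein, 20 against 15, Npas3, a neural bHLH-PAS factor, 20 against 9, Mctp1 17 against 4, and Adamtsl1 and Lrtm1 had 15 unprimed peaks against 11 and 15 primed ones. Nfia, given below with its family, was also among the 10 highest for unprimed peaks, with 15 against 9 primed. Lrtm1 itself is a gene of 15.4 kb.

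Some genes were at either end of the primed share. Among genes with at least 8 gained peaks, Cdh6, a cadherin gene, had 12 of 12 primed, Asap1 11 of 11, Tacc2 10 of 10 and Adamts2, a procollagen protease, 9 of 9. At the other end, the predicted gene Gm15319 had 1 of 10, Ttc3 1 of 9, Mtpn 1 of 8 and Snd1 1 of 8. Of the gained peaks of Cdh6, 4 of 12 had lA H3K27ac, and of those of Snd1, 6 of 8. These genes were picked by their share, so the counts describe them and are no test.

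Among the gained peaks with the highest −log10 q, several stood directly beside older ones. The strongest primed distal peak lay in an intron of Hc with the nearest start site that of Traf1 (chr2:34848197-34848766, −log10 q 167) and was 261 bp from an aNPC H3K27ac peak, whereas the second, in Bmp6 (chr13:38492747-38493529), was 125216 bp away from one. The others were near Samd12, Hist1h2al and Mrpl33, with −log10 q of 145, 128 and 126. Of the unprimed distal peaks, those of Gpr111, Gm10974 and Gm15319 (−log10 q 104, 64.1 and 62.7) lay 59, 66 and 106 bp from an aNPC H3K4me1 peak. Those near Anpep and Slc16a7 (62.1 and 61.1) lay 10226 and 7416 bp away. The peaks of Gpr111 and Gm10974 were centred only 752 and 565 bp past a start site. They counted as distal because the promoter stretch ends 100 bp past it, and Gpr111 had a primed promoter peak as well. The strongest primed promoter peaks were those of Tm4sf1, a tetraspanin-like membrane protein (chr3:57105241-57106359, −log10 q 110), Tctn3, a protein of the ciliary transition zone (94.0), Gpr111 (82.3), Ednrb, the endothelin receptor B (78.3), and Mafk, a small Maf factor (63.4). The 5 strongest unprimed promoter peaks, at Rpp38, Heatr2, Gm10106, Mdm2 and Dynlt1b, all lay close to aNPC H3K27ac, between 87 and 495 bp from a peak of that list. That of Gm10106 joined a −log10 q of 40.3 with a fold of 2.91. The strongest unprimed promoter peaks apart from the aNPC lists were weaker, with a −log10 q of 22.0 at Emp3 and 19.1 at Mnda.

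The BMP and TGF-beta pathway acts on Smad factors and promotes astrocyte fate together with LIF. Of its ligands and regulators, 26 of 29 genes (89.7%) had gained peaks, 79 primed and 42 unprimed (65.3% primed). Bmp6 (chr13:38436995-38592183, plus strand) had no kept peak at all, but 7 primed and 5 unprimed gained ones, of which 11 had lA H3K27ac. The promoter peak of Bmp6 (chr13:38437164-38437686) was primed, and so were the 2 next ones, centred 893 and 1879 bp into the gene, while the 3 peaks 9098 to 13388 bp downstream of the start site were unprimed and lay 7181 to 11502 bp from the nearest aNPC H3K4me1 peak. Further on, 4 primed and 2 unprimed Bmp6 peaks stood between 54216 and 65478 bp downstream, with both unprimed ones within 505 bp of an H3K4me1 peak. The inhibitory Smads had 10 primed and 2 unprimed peaks at Smad6 and 6 and 4 at Smad7, and the receptor gene Bmpr1b had 6 and 4.

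The gp130, JAK and STAT genes carry the signal of LIF and related cytokines. Of these, 15 of 18 (83.3%) had gained peaks, 39 primed and 22 unprimed (63.9% primed). Bcl3, an IkappaB family coactivator, had no kept peak and 5 primed gained peaks against 1 unprimed, all 6 with lA H3K27ac. Il6ra, the interleukin-6 receptor, had 5 and 1, and Jak1 6 and 4. Cntf, the ligand ciliary neurotrophic factor (chr19:12838150-12840122, minus strand), was the opposite case, with 6 unprimed and 0 primed gained peaks. Both promoter peaks of Cntf, chr19:12840056-12840370 and chr19:12840587-12841293, were 5009 and 5540 bp from the nearest aNPC H3K4me1 peak, and 5 of its 6 peaks had lA H3K27ac. Cntf overlaps the gene Zfp91, so these peaks cannot be given to one of them.

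Of the astrocyte genes, 13 of 16 (81.2%) had gained peaks, 45 primed and 23 unprimed (66.2% primed). Aqp4, the water channel, had the most gained peaks of the list, 10 primed and 8 unprimed, of which 15 had lA H3K27ac, although its promoter had no eA peak. Cd44, a hyaluronan receptor, had 8 primed and 1 unprimed, the glutamate transporter Slc1a2 6 and 1, and the glutamate transporter Slc1a3 3 and 4. Of the 9 peaks of Cd44, 2 had lA H3K27ac. The neural progenitor genes had more unprimed than primed gained peaks, 14 against 10 at 8 of 11 genes (72.7%), and 41.7% of the peaks were primed. Tnc, a matrix glycoprotein, had 5 unprimed and 1 primed, Sox2 and Pax6 each 3 unprimed and 1 primed, and Prom1 2 unprimed and 3 primed. With so few peaks per list these splits are counts and were not tested.

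Gained peaks were also given to genes of other lineages, for most lists at a share of genes close to or below the 43.1% of all coding genes. Of the neuronal genes, 8 of 9 (88.9%) had gained peaks, 14 primed and 8 unprimed (63.6% primed). Rbfox3, which encodes the neuronal antigen NeuN, had no kept peak, 6 primed and 1 unprimed gained peaks, and aNPC H3K4me1 but no eA H3K27ac at its promoter. Elavl3 had 2 primed peaks, Gap43 2 of each kind, and Stmn2, a neuronal tubulin-binding protein, 0 primed and 4 unprimed, which stood at -25278 to -17721 bp from its start site, 18318 bp or more from any aNPC H3K4me1 peak, all with lA H3K27ac. The proneural factors had 14 primed and 5 unprimed peaks at 5 of 12 genes (41.7%), and 73.7% of the peaks were primed. Most were given to Atoh1, with 7 and 5, and these reached as far as -686714 bp from its start site. At that distance they lay inside another gene, since peaks in an exon or intron went to the nearest start site at any distance. The counts of Atoh1, and with them the primed share of this list, thus include sites that cannot be given to Atoh1 alone. Eomes had 3, Dlx2 2 and Neurod2 1 primed peaks and no unprimed ones. The oligodendrocyte genes had 9 primed and 5 unprimed at 5 of 11 genes (45.5%), and 64.3% of the peaks were primed, among them Mbp with 4 and 2, Cnp with 4 and 0, Cspg4 with 0 and 2 and Nkx2-2 with 1 and 0. The pluripotency genes had 3 and 4 at 3 of 9 genes (33.3%), with 2 of each kind at Nanog, 1 primed at Klf2 and 2 unprimed at Tdgf1, and the microglial genes 5 and 0 at 2 of 8 genes (25%), with 4 at P2ry12 and 1 at Csf1r.

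**Figure D5:**
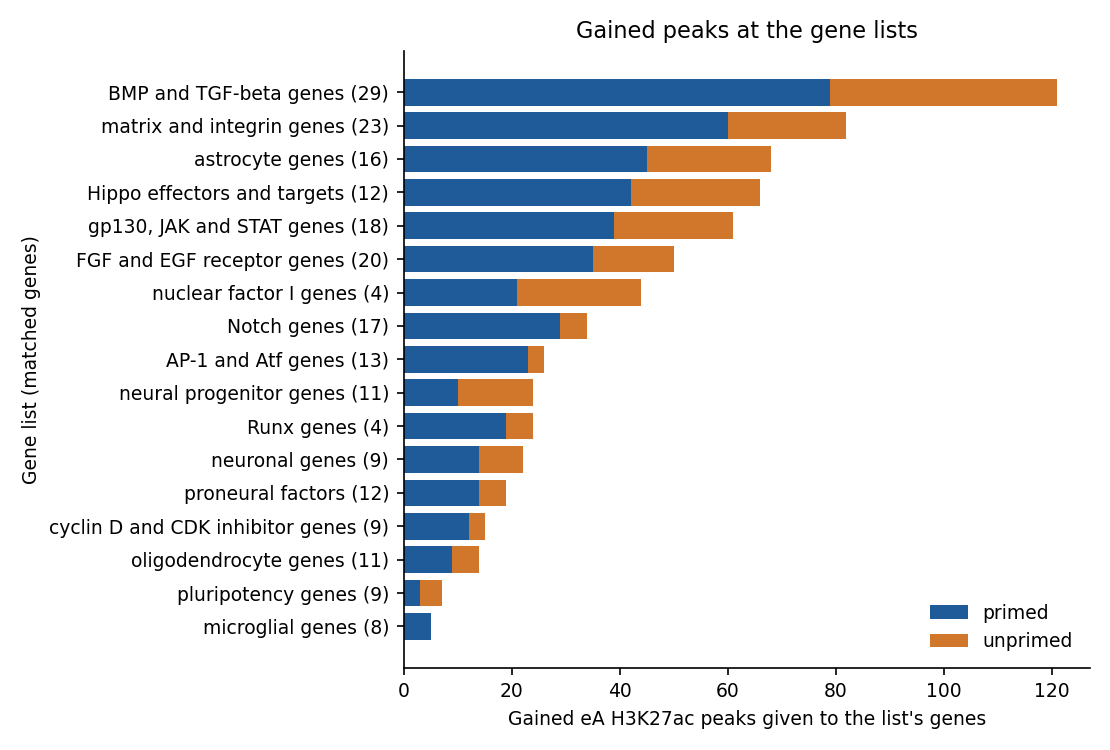
Number of gained eA H3K27ac peaks given to the genes of each list (x axis), divided into primed and unprimed, for 17 lists (y axis, with the number of genes matched in the annotation). The BMP and TGF-beta list is longest with 79 primed and 42 unprimed peaks, and the nuclear factor I, neural progenitor and pluripotency lists are those with fewer primed than unprimed peaks.

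For 3 transcription factor families the split into primed and unprimed is given as counts, and differences between the families were not tested. The AP-1 and Atf genes, most of whose products bind the AP-1 letters above, had 23 primed and 3 unprimed peaks (88.5% primed). These lay at 11 of 13 genes (84.6%). Fos and Jdp2 had 4 primed each and no unprimed, Jun 2 and 1, and Mafk 4 and 1, with its promoter peak at chr5:140273067-140273807. The strongest peak of Fos, chr12:86826391-86826976, had a −log10 q of 71.6 and stood 160 bp from an aNPC H3K27ac peak. The Runx genes, which encode the Runt factors and their partner Cbfb, had 19 and 5 at 4 of 4 genes, and 79.2% of the peaks were primed. Runx2 had 9 primed and 2 unprimed peaks in its introns, all 11 with lA H3K27ac, with the unprimed ones 385 and 184 bp from an H3K4me1 peak. Runx1 had 8 and 2, Runx3 1 of each kind and Cbfb 1 primed. The nuclear factor I genes, whose factors drive gliogenesis, had 21 primed and 23 unprimed peaks at 4 of 4 genes (47.7% of the peaks primed). There were 9 and 15 at Nfia, 8 and 5 at Nfib, 1 and 3 at Nfix, and 3 primed at Nfic. The family had 83 kept peaks besides.

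Of the signalling lists, the Notch genes had 29 primed and 5 unprimed gained peaks at 11 of 17 genes (64.7%), and 85.3% of the peaks were primed. Hes1, a repressor that Notch activates, had 7 primed and 0 unprimed peaks, all upstream of the gene at -42349 to -5151 bp from its start site, and 5 of them had lA H3K27ac. Among the receptors, Notch2 had 5 and 2 and Notch1 4 and 1, and the coactivator gene Maml3 had 5 primed peaks. The FGF and EGF receptor genes had 35 and 15 at 15 of 20 genes, and 70.0% of the peaks were primed. Fgfr2 had 5 and 4, and the Ets factor gene Etv5 had 3 of each kind. The ligand genes Fgf1 and Fgf2 had 4 and 1 each. The Hippo effectors and targets had 42 and 24 at 9 of 12 genes, and 63.6% of the peaks were primed. The cofactor gene Wwtr1, which encodes TAZ, had 9 and 6, the DNA-binding partner Tead1 12 and 2, and the kinase gene Lats2 7 and 2. Amotl2, an angiomotin relative that is induced by YAP, had 2 primed and 10 unprimed, and 3 of its unprimed peaks with a −log10 q of 30.6 to 37.3 stood 43087 to 46961 bp downstream of its start site.

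The matrix and integrin genes had 60 primed and 22 unprimed gained peaks at 21 of 23 genes (91.3%), and 73.2% of the peaks were primed. Itga3, an integrin that binds laminin (chr11:94905788-94938115, minus strand), had no kept peak and 7 primed gained peaks, and its promoter peak, chr11:94937324-94938606, had a −log10 q of 41.4. Timp3, an inhibitor of metalloproteinases, lies within an intron of Syn3 and had 8 of each kind, 12 of the 16 with lA H3K27ac, Col5a1 had 7 and 1, and the laminin gene Lamc1 4 and 3 with 0 of 7 in lA. The cyclin D and CDK inhibitor genes had 12 and 3 at 7 of 9 genes (77.8%), and 80% of the peaks were primed. Cdkn1c, which encodes the inhibitor p57, had no kept peak and 4 primed gained peaks, between 27668 and 92936 bp downstream of its start site, Cdkn1a and Ccnd1 had 2 primed each, and Ccnd3 2 and 1. Over all coding genes the median number of gained peaks was 0. It was 8.50 for the nuclear factor I, 6 for the Runx, 3.50 for the Hippo and 3 for the astrocyte, BMP and gp130 lists. For the neuronal, AP-1, FGF, matrix and cyclin lists it was 2, and for the neural progenitor and Notch lists 1. The proneural, oligodendrocyte, pluripotency and microglial lists had a median of 0. Gene length was not taken into account, and Nfia and Nfib span 429 and 416 kb.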

How the data were processed

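H3K4me1 and H3K27ac were measured by ChIP-seq in aNPC, eA and lA. Per the paper's methods and the labels, the authors aligned uniquely mapped reads to mm9 with Bowtie, merged 2 biological replicates per mark and stage with SAMtools 0.1.19 and called peaks with MACS without an input control. The 6 deposited lists give for each peak a position, a summit, a fold over the local background (a ratio) and a −log10 q, which the authors' peak caller made and which were not compared between lists. The files give no read counts, so depth is unknown and could set how many H3K4me1 peaks were called, and merging leaves no error between cultures.

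Peaks on chromosomes 1 to 19 were kept, and overlap was at least 1 bp. Start sites were those of 49460 coding transcripts of the GENCODE annotation for mm9 (21281 gene names), and a gene was assigned to peaks at its promoter, in exons or introns, or within 50 kb. Shares have 95% Wilson intervals, differences Newcombe intervals, and 32 two-sided Fisher's exact tests were adjusted together by Benjamini-Hochberg. Stratified differences used Mantel-Haenszel weights. Intervals and tests cover counting error over peaks only. Python 3.11.15, numpy 2.4.6, pandas 2.3.3, scipy 1.17.1, statsmodels 0.14.6, pysam 0.24.0, samtools 1.23.1 and matplotlib 3.10.9 were used, and overlap, distance and test functions were checked on simulated data. Of 233 genes in 17 lists, 225 were matched by name or Ensembl ID.

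The members and lists were chosen with earlier results of these data known. Named were up to 4 genes per list with the most gained peaks, the 10 coding genes with the most primed and with the most unprimed gained peaks, the 5 with the lowest and the 5 with the highest primed share among genes with at least 8 gained peaks, and the 5 peaks with the highest −log10 q per class. Results for 2 of these genes are not reported here. Further genes named for promoter marks, and the sites apart from older peaks, were chosen after their values were seen. Alternatives changed the thresholds, the overlap rule, the definition of gained peaks and promoters, and the motif window. The RNA-seq samples, of which 8 had no group in the labels, the other chromosomes and peak strength across stages were not analysed here.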

Additional observations from a re-analysis of the deposited data

How the results depend on the processing

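Values are given in the order of the report's rule and then the alternatives. The primed share of the gained peaks (64.3%) was 69.9% with eA peaks of −log10 q of at least 5, 58.2% with such aNPC H3K4me1 peaks, 52.7% with the summit inside, 79.9% with H3K4me1 within 1 kb and 60.9% without aNPC H3K27ac within 1 kb. In that order the median width difference (93 bp) was 115, 88, 59, 64 and 113 bp. The share of aNPC H3K4me1 peaks without H3K27ac that met eA H3K27ac (20.6%) was 16.4%, 24.7% and 15.0% under the first 3, and 15.8% under the last. The difference in median distance (-2178 bp) was -3480 bp with stricter H3K4me1 peaks, -4516 bp with the summit rule, -2254 bp with stricter eA peaks, -1429 bp with H3K4me1 within 1 kb and -1570 bp without aNPC H3K27ac within 1 kb. The difference in lA H3K27ac (6.93 points) kept its direction under the other 5 alternatives (2.34 to 7.88) but turned under the 4 added after the data had been seen, with -3.24 within width classes, -4.41 within 10 groups of width, -1.77 within 10 groups of −log10 q and -5.16 within both. In 500 bp windows the RUNX difference was -1.31 points (unadjusted exact p = 0.0113), SOX -0.158, NF1 3.87 (from 1.10), AP-1 -2.31 (from -0.986) and STAT -2.21 points (from -0.688). Within groups of GC content, added later, SOX was 1.66 points, which passed the Mantel-Haenszel test, and STAT -0.222 points, which did not. The cause of these changes was not tested. The differences in earlier H3K4me1 between kept and gained peaks (18.9 to 31.5 points), in eA H3K4me1 (26.1 to 30.7) and in promoter share (2.08 to 5.23) kept their direction and call under each alternative run, and genes with primed peaks alone numbered 3122 to 5877. No paired analysis was possible because the replicates were merged before peak calling, and for the same reason no replicate could be left out. Depth limits what an unprimed call means, since a weak H3K4me1 peak may have been missed.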
